A study of Mus musculus with 6 samples.

Results

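The 10 genes described here carry the transforming growth factor beta (TGF-beta) signal that microglia receive: the ligand gene Tgfb1, the latency genes Nrros and Ltbp3, the receptor genes Tgfbr1 and Tgfbr2, the transducer genes Smad2, Smad3 and Smad4, and the inhibitor genes Smad7 and Ski. They were taken by symbol from a table of 55487 genes, and each symbol matched 1 Ensembl gene, so that all 10 were measured and all 10 entered the test across 15787 genes. TGF-beta is secreted in a latent form, bound to a carrier protein that holds it on a cell surface or in the matrix until an integrin or a protease releases it. The active ligand binds the type II receptor, which phosphorylates the type I receptor. That receptor then phosphorylates SMAD2 and SMAD3, which enter the nucleus with SMAD4. In the mouse brain, microglia need this signal to keep their mature, homeostatic state.

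The study compared microglia, the resident macrophages of the brain, between female mice aged 20 months. Both groups carried floxed Atg7 alleles (Atg7-fl/fl), and the 3 controls carried nothing else that the labels name. The 3 knockouts carried the Cx3cr1-CreERT2 allele in addition, in which a ligand-dependent Cre recombinase is driven from the Cx3cr1 locus, a gene that microglia and other brain macrophages use. Atg7 encodes an enzyme of autophagosome formation. The controls had no Cre, so loss of Atg7 cannot be told apart from the Cre allele and the altered Cx3cr1 locus. The labels do not say how or when the Cre was induced. Live CD11b-positive cells of intermediate CD45 staining were sorted from the cortex of each mouse, and bulk RNA was sequenced as 1 library per mouse.

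Depth was uneven. Library totals were 39389527, 38798703 and 1254380 reads in the control mice against 33129233, 3789208 and 21282335 reads in the knockout mice. Below, the term shallow libraries means control 3 and knockout 2, and the other 4 are the deep ones. Levels are given as CPM, the reads of a gene as parts of a common library size after scaling by edgeR's TMM factors, and values per mouse are always in the order of replicates 1 to 3. Atg7 lay at 65.7, 66.4 and 56.6 CPM in the control mice against 25.0, 26.5 and 23.7 CPM in the knockout mice, lower in every knockout (edgeR log2 fold change -1.33, SE 0.19, adjusted p = 0.0147). The 7 microglial markers reported here (P2ry12, Tmem119, Sall1, Fcrls, Csf1r, Gpr34 and Siglech) summed to between 37993 and 41756 CPM in control mice and between 33721 and 37835 CPM in knockout mice. The 10 markers of border-associated macrophages summed to 17.5 to 91.2 CPM and 69.9 to 285 CPM, the 8 of monocytes to 9.94 to 49.5 CPM and 24.0 to 141 CPM, and the 6 of neutrophils to 41.9 to 372 CPM and 124 to 1720 CPM. Each of these macrophage, monocyte and neutrophil markers had reads in some library. Lymphocyte markers were close to 0, with sums of no more than 0.376 CPM in any control and 1.82 CPM in any knockout, and the 6 neuronal markers summed to 0.779 to 6.29 CPM over all libraries. Astrocyte markers summed to 263 to 347 CPM, oligodendrocyte markers to 61.3 to 113 CPM, and endothelial and mural markers to 36.8 to 91.9 CPM.

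No gene of the TGF-beta pathway group differed between knockouts and controls beyond the spread between mice. EdgeR called 0 of the 10 genes at an adjusted p under 0.05, where it called 0.0443% of all genes tested, so a count of 0 is near the background. At an unadjusted p under 0.05 the count was also 0 of 10, against 4.32% of all genes. DESeq2 and limma voom each called 0 of the 10, against 0.526% and 0.095% of all genes. The range of the 3 knockout libraries overlapped that of the 3 controls in all 10 genes, whereas it did not overlap in 11.1% of all genes tested. The fitted log2 fold change was below 0 in 6 of the 10 (47.5% of all genes tested) and above 0 in 4, with a median of -0.098 beside 0.021 over all genes tested. These are bulk samples, in which fewer cells of a type and less RNA per cell cannot be told apart.

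The receptors and the surface anchor stood highest in this group of genes. Levels of different genes are compared as RPKM, the same scaled values divided by the exonic length in kilobases. Tgfbr1, the type I receptor, ranked first in all 6 libraries, at 236 RPKM ± 26.2 (SD, n = 3) in the controls and 209 RPKM ± 28.8 in the knockouts. Nrros, which encodes the transmembrane protein that tethers latent TGF-beta 1 to the microglial surface, ranked second in all 6, at 110 RPKM ± 4.58 and 103 RPKM ± 3.37. Tgfbr2, the ligand-binding type II receptor, came next in all 6, at 43.7 RPKM ± 7.96 and 40.0 RPKM ± 2.85. In the controls these 3 genes stood at or above the level of 98.9%, 97.5% and 93.4% of the genes tested.

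Because these 3 genes head the order in each library, their upstream sequences are shown. The 250 bases before each RefSeq start are given in the build GRCm38.p6, 5′ to 3′ on the gene's strand. Tgfbr1 is at chr4:47352972-47353221 on the plus strand, Nrros at chr16:32165595-32165844 on the minus strand, and Tgfbr2 at chr9:116175364-116175613 on the minus strand. Capitals mark the SMAD core motif CAGAC and the ETS-family motif GAGGAA, searched on both strands.
Tgfbr1: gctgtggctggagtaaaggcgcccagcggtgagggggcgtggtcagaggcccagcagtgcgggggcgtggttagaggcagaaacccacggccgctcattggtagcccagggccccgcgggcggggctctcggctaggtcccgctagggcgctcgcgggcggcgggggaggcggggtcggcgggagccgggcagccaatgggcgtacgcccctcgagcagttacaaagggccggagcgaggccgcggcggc
Nrros: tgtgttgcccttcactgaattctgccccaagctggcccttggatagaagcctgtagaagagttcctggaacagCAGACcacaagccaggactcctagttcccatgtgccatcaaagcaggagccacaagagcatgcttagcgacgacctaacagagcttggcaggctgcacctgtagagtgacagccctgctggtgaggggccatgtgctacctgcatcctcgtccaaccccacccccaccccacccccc
Tgfbr2: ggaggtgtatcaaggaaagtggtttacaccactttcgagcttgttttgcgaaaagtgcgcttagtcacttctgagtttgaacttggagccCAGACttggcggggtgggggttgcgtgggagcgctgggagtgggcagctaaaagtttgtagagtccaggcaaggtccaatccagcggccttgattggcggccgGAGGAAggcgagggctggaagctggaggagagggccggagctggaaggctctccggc
The Tgfbr1 window held neither motif and 29 CpG pairs, against a median of 6 over 27025 promoters. The Nrros window held CAGAC and 3 CpG pairs, and the Tgfbr2 window held both motifs and 12 CpG pairs. Of the 10 genes 7 had an entry in the promoter table, and CAGAC was found in 3 of these 7 (Tgfbr2, Nrros and Ltbp3), against 42.2% of all promoters. GAGGAA was found in 1 of 7, against 23.1%, and the longer SMAD palindrome GTCTAGAC in 0 of 7, against 0.174%. The motifs are matches of letters in these windows and were not measured as bound sites.

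Below the receptors, the order was set less sharply. Ski, a corepressor that binds SMAD complexes, and Smad3, a receptor-regulated transducer, held ranks 4 and 5 in all 6 libraries, at 30.1 RPKM ± 2.19 and 13.8 RPKM ± 2.06 in the controls. The next 4 genes lay close together in the controls: Smad4 at 6.38 RPKM ± 1.07, Smad2 at 5.90 RPKM ± 0.549, Smad7 at 5.15 RPKM ± 1.64 and Tgfb1 at 4.80 RPKM ± 0.766. The control libraries of each of these overlapped those of its neighbour, and their order changed from library to library. Ltbp3, which encodes a matrix carrier of latent TGF-beta, was lowest in every library, at 0.366 RPKM ± 0.139 in the controls and 0.441 RPKM ± 0.247 in the knockouts. The transcript of the ligand was thus present at a level near those of Smad2, Smad4 and Smad7, while Nrros stood at 18.6 to 27.5 times Tgfb1 in the control mice and at 20.8 to 27.9 times in the knockout mice.

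**Figure D1:**
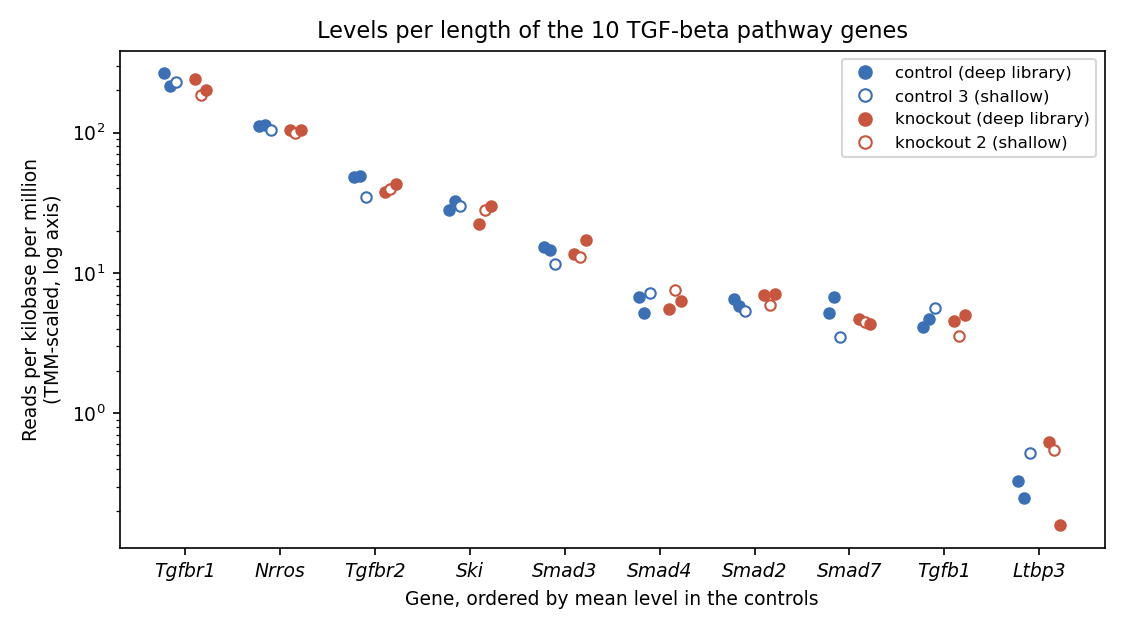
Level per length of each gene in each library (RPKM on a log axis), with controls in blue, knockouts in red and the shallow libraries as open circles. Tgfbr1, Nrros, Tgfbr2, Ski and Smad3 hold ranks 1 to 5 in every library and Ltbp3 holds rank 10, while the libraries of Smad4, Smad2, Smad7 and Tgfb1 intermix.

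The ligand and its carriers were examined first. Tgfb1 lay at 20.6, 23.7 and 28.3 CPM in the control mice against 22.8, 17.9 and 25.4 CPM in the knockout mice. The highest and the lowest of the 6 values both came from shallow libraries, and the groups overlapped. The fitted log2 fold change of Tgfb1 was -0.10 (SE 0.24, 95% interval -0.62 to 0.42, edgeR adjusted p = 0.999), and with the 4 deep libraries alone it was 0.12 (SE 0.22). Control 3 held 36 Tgfb1 reads, which by counting error alone allows 19.8 to 39.2 CPM (exact Poisson 95% interval).

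Nrros was the steadiest of the 10 genes. It lay at 469, 471 and 437 CPM in the control mice against 437, 414 and 439 CPM in the knockout mice, a coefficient of variation of 4.94% over the 6 libraries. Controls 1 and 2 were above all knockouts, but control 3 lay among the knockouts. The fitted log2 fold change was -0.10 (SE 0.13, 95% interval -0.38 to 0.19, edgeR adjusted p = 0.999), and each alternative fit gave a value below 0, from -0.14 to -0.043. On the linear scale the interval runs from 23.1% lower to 14.0% higher.

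Ltbp3 was the least certain. Its reads numbered 113, 84 and 6 in the control mice against 190, 19 and 31 in the knockout mice, or 2.97, 2.26 and 4.71 CPM against 5.62, 4.94 and 1.44 CPM. Both the lowest and the highest level came from a deep knockout library, so the knockouts spanned the controls. The log2 fold change was 0.36 (SE 0.64, edgeR adjusted p = 0.999), with a 95% interval from -0.999 to 1.72, and it was -0.050 without knockout 1. In the GENCODE M21 annotation 2.01% of the exonic bases of Ltbp3 are shared with a gene on the other strand, and for the other 9 genes that share is 0%.

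**Figure D2:**
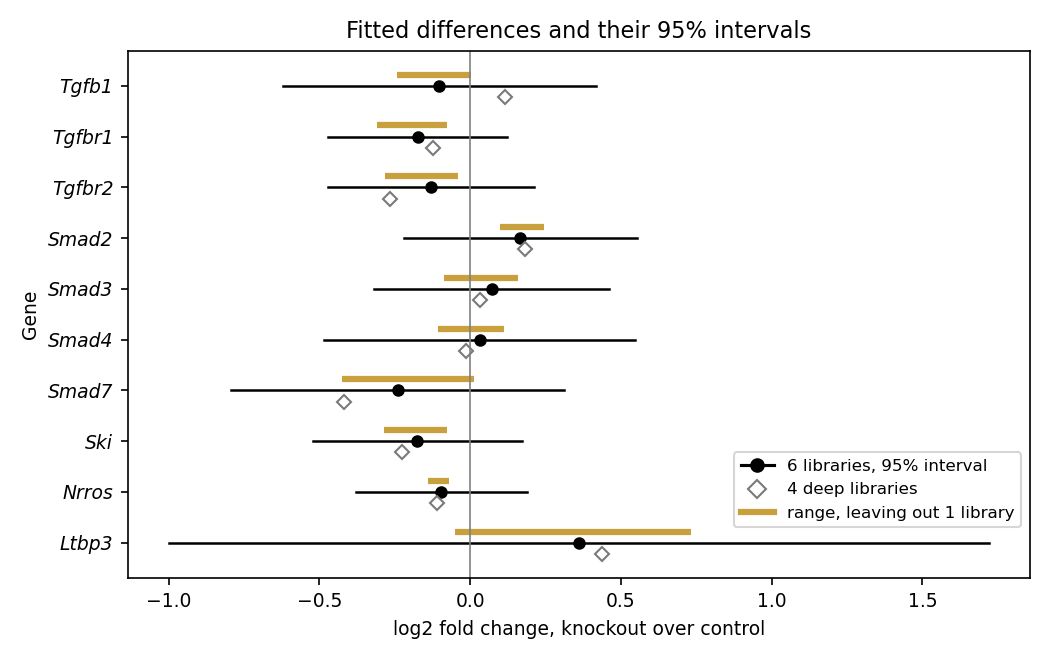
Log2 fold change of knockout over control for each gene (black point, 95% interval as a line), the same from the 4 deep libraries (open diamond) and the range when any single library is left out (ochre bar). All 10 intervals include 0, and that of Ltbp3 is the widest.

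Both receptor genes had fitted values below 0 that the spread between mice covered. Tgfbr1 lay at 1729, 1395 and 1499 CPM in the control mice against 1577, 1216 and 1305 CPM in the knockout mice. Knockout 1 lay above controls 2 and 3, and the other 2 knockouts lay below all controls. Its log2 fold change was -0.17 (SE 0.14, 95% interval -0.47 to 0.12, edgeR adjusted p = 0.999). Tgfbr2 lay at 392, 399 and 283 CPM in the control mice against 308, 322 and 353 CPM in the knockout mice. Its lowest value was that of control 3, a shallow library, while controls 1 and 2 were the highest of the 6. The log2 fold change of Tgfbr2 was -0.13 (SE 0.16, 95% interval -0.47 to 0.21, edgeR adjusted p = 0.999), and it was -0.27 (SE 0.13) with the 4 deep libraries alone, again with no call.

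Within a library, the ratio of the receptor levels per length does not depend on the scaling between libraries. Tgfbr2 stood at 0.181, 0.228 and 0.151 times Tgfbr1 in the control mice against 0.156, 0.211 and 0.216 times in the knockout mice. The type I transcript was therefore the higher one in each mouse, and the ratio overlapped between the groups.

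The transducers showed small fitted values above 0. Smad2, phosphorylated by the activated type I receptor, lay at 56.8, 51.4 and 47.1 CPM in the control mice against 61.4, 51.4 and 62.0 CPM in the knockout mice. Knockouts 1 and 3 were above all controls, and knockout 2 lay within their range. The log2 fold change of Smad2 was 0.17 (SE 0.18, 95% interval -0.22 to 0.55, edgeR adjusted p = 0.999), and it stayed above 0 in all 15 alternative fits.

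Smad3, the other receptor-regulated transducer, lay at 85.0, 81.3 and 63.6 CPM in the control mice against 75.3, 71.9 and 95.6 CPM in the knockout mice. The extremes came from control 3 and knockout 3, and the groups overlapped. Its log2 fold change was 0.072 (SE 0.18, 95% interval -0.32 to 0.46, edgeR adjusted p = 0.999), with values on both sides of 0 when a library was left out. Per length, Smad3 was the higher of the pair in each library, at 2.14 to 2.51 times Smad2 in the controls and 1.94 to 2.44 times in the knockouts.

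Smad4, the partner that both transducers share, lay at 25.1, 19.2 and 26.7 CPM in the control mice against 20.6, 28.1 and 23.5 CPM in the knockout mice. The groups spanned nearly the same range. Its log2 fold change was 0.032 (SE 0.24, 95% interval -0.48 to 0.55, edgeR adjusted p = 0.999).

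Of the inhibitors, Smad7, a feedback inhibitor that SMAD signalling itself induces, lay at 23.6, 30.6 and 15.7 CPM in the control mice against 21.0, 20.3 and 19.6 CPM in the knockout mice. The 3 knockouts were close to each other, and the controls spread on both sides of them, with shallow control 3 lowest. The log2 fold change of Smad7 was -0.24 (SE 0.26, 95% interval -0.79 to 0.31, edgeR adjusted p = 0.999). It was -0.42 (SE 0.23) with the 4 deep libraries alone and 0.012 without control 2. Control 3 held 20 Smad7 reads, for which counting error alone allows 9.60 to 24.3 CPM.

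Ski lay at 156, 180 and 167 CPM in the control mice against 123, 157 and 166 CPM in the knockout mice. Knockout 1 was the lowest library, and the other 2 knockouts lay within the control range. Its log2 fold change was -0.17 (SE 0.16, 95% interval -0.52 to 0.17, edgeR adjusted p = 0.999), and all 15 alternative fits gave a value below 0.

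The intervals, which are for single genes and not adjusted for the number of genes, bound the differences these 6 libraries allow. They lay within a log2 fold change of 1 in either direction for 9 of the 10 genes, all but Ltbp3, and within 0.5 for 4 of them: Tgfbr1, Tgfbr2, Smad3 and Nrros. A missed threshold does not show that the levels were equal.

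Other genes of the pathway were taken from lists of ligands, activation factors, receptors, transducers and inhibitors. Among other ligands of the superfamily most were near 0: Tgfb2 had 28 reads and Tgfb3 12 reads over all 6 libraries together, and only 3 of 14 listed ligands passed the expression filter. Of the 3 TGF-beta isoform genes, only Tgfb1 passed that filter. Gdf11, a ligand of the activin branch, had a mean of 11.4 CPM in control mice against 8.16 CPM in knockout mice (log2 fold change -0.44, SE 0.38, edgeR adjusted p = 0.999). EdgeR called 0 of the 3 ligands tested, as did DESeq2 and voom here and in the latency, receptor and transducer lists below; 0 of them had an unadjusted p under 0.05, and their median log2 fold change was -0.44.

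The latency list was read against Nrros and Ltbp3. Lrrc32, which encodes the anchor that regulatory T cells use in place of NRROS, had 10 reads in all. Itgav, the integrin alpha chain that takes part in ligand release, averaged 151 CPM in control mice against 142 CPM in knockout mice, whereas Itgb8, its partner in the release of NRROS-bound ligand, had 40 reads in all. EdgeR called 0 of the 15 latency and activation genes tested. None had an unadjusted p under 0.05, 5 were above 0 and 10 below, and the median log2 fold change was -0.090. The 3 with the smallest p were Itgb3 (log2 fold change 0.35, SE 0.21), an integrin beta chain, Itgb5 (-0.24, SE 0.19), another beta chain, and Mmp14 (-0.47, SE 0.40), a membrane-bound protease, each with an edgeR adjusted p of 0.999.

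Ltbp1, a matrix carrier of the same family as Ltbp3, stood apart in a way that did not follow the groups. It had 2, 30 and 9717 reads in the control mice against 2, 11646 and 68814 reads in the knockout mice. These reads amount to 0.0526, 0.807 and 7635 CPM against 0.0592, 3025 and 3199 CPM, so 3 libraries held almost none of it and 3 held it above the level of Tgfbr1. The high libraries were shallow control 3, shallow knockout 2 and deep knockout 3. The fit gave a log2 fold change of -0.29 with an SE of 4.13 (95% interval -11.60 to 11.02).

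Ltbp1 was not alone. By a rule chosen after its values were seen, 22 genes of the table had at least 100 CPM in control 3 and knockout 2 and at most 5 CPM in control 1, control 2 and knockout 1. They include Olfr1214 and Vmn1r180, named as an olfactory and a vomeronasal receptor gene, and 4 of them (Ltbp1, Adamts5, Olfr1214 and Gm15328) also had at least 100 CPM in knockout 3. Together they took 3.09% of reads in control 3, 1.59% in knockout 2 and 0.386% in knockout 3, against at most 0.00114% in the other 3 libraries. None of the 10 genes described here was among them, and their part in the values of the shallow libraries was not tested.

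**Figure D3:**
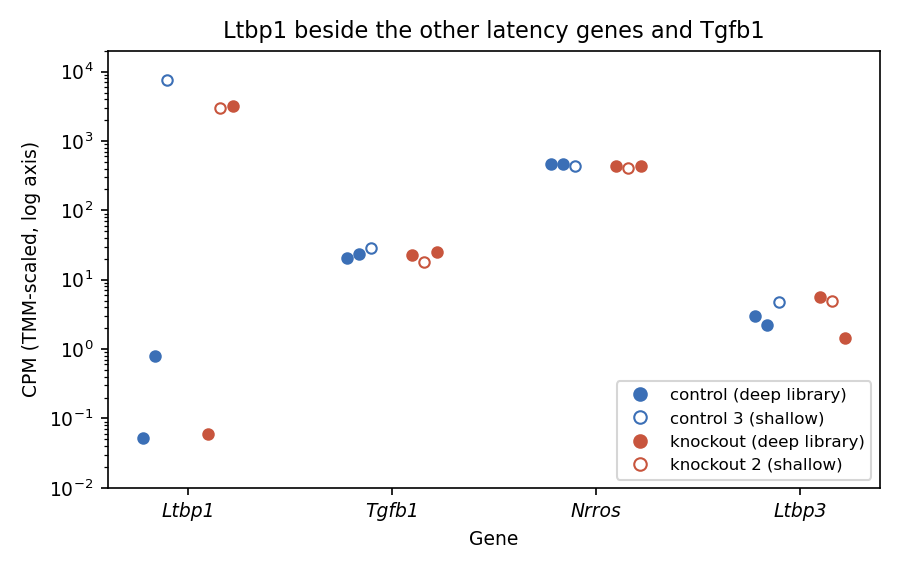
CPM (log axis) of Ltbp1, Tgfb1, Nrros and Ltbp3 in each library, with controls in blue, knockouts in red and the shallow libraries as open circles. Ltbp1 splits into 3 libraries below 1 CPM and 3 at 3025 CPM or more, across both groups, while Nrros stays between 414 and 471 CPM.

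Of the other receptors and co-receptors, edgeR called 0 of 10 tested, with 0 at an unadjusted p under 0.05 and a median log2 fold change of -0.14. Eng and Acvrl1, a co-receptor and a type I receptor best known from endothelium, were present at means of 122 and 60.8 CPM in control mice against 124 and 60.2 CPM in knockout mice. The smallest p-values belonged to the activin and BMP receptor genes Acvr1 (log2 fold change -0.28, SE 0.24), Acvr1b (-0.44, SE 0.38) and Bmpr2 (-0.16, SE 0.19), all with an edgeR adjusted p of 0.999. Tgfbr3, the co-receptor betaglycan, had 22 reads in all.

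Of the other transducers and coactivators, edgeR called 0 of 18 tested, with 0 at an unadjusted p under 0.05 and a median log2 fold change of -0.075. Sptbn1, a spectrin that acts as a SMAD adaptor, was at 4.23, 4.89 and 6.29 CPM in the control mice against 9.71, 10.1 and 6.32 CPM in the knockout mice. Its knockouts all lay above its controls, as in 6.59% of all genes tested, by a narrow margin for knockout 3 (log2 fold change 0.81, SE 0.42, edgeR adjusted p = 0.999). Ppp2r2a, a phosphatase subunit, and Usp9x, a deubiquitinase that acts on SMAD4, followed at -0.34 (SE 0.22) and 0.41 (SE 0.27).

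Of the other inhibitors and corepressors, edgeR called 0 of 15 tested, while an unadjusted p under 0.05 was reached by 2 lower and 0 higher genes, against 1.98% and 2.34% of all genes tested, and the median log2 fold change was -0.11. The count of lower genes, here Pmepa1 and Fkbp1a, was 0 without control 1, control 2 or knockout 2, and 1 without knockout 1, knockout 3 or both shallow libraries. It was 3 without control 3 and 3 with voom. Pmepa1, a SMAD-induced gene whose product sequesters SMAD2 and SMAD3, had 333, 367 and 333 CPM in the control mice against 285, 205 and 290 CPM in the knockout mice. All its knockouts lay below all its controls, as in 4.47% of all genes tested, and the log2 fold change of -0.40 (SE 0.16) did not pass (edgeR adjusted p = 0.999). Fkbp1a, which encodes the FKBP12 protein that holds the type I receptor inactive, had 70.6, 66.3 and 18.9 CPM in the control mice against 24.2, 24.4 and 19.0 CPM in the knockout mice. Here shallow control 3 lay with the knockouts and below them (log2 fold change -1.25, SE 0.42, edgeR adjusted p = 0.999). DESeq2 called Fkbp1a, and edgeR called it without control 3, without both shallow libraries or with no expression filter. Voom called 0 of the 15. Skil, the paralog of Ski, had a log2 fold change of -0.21 (SE 0.16). Smad6, the other inhibitory SMAD gene, had 68 reads in all and was not tested.

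Among genes downstream of the pathway no call was made by edgeR either. It called 0 of 12 broad SMAD target genes tested. An unadjusted p under 0.05 was reached by 4 higher genes and 1 lower gene, against 2.34% and 1.98% of all genes, and the median log2 fold change was 0.29. The count of lower genes was 0 without control 1, control 2 or knockout 2, and 2 without control 3. Cdkn1a, the gene of the cell cycle inhibitor p21, had 14.6, 20.9 and 11.8 CPM in the control mice against 51.0, 58.2 and 29.2 CPM in the knockout mice (log2 fold change 1.495, SE 0.29, edgeR adjusted p = 0.129). Tgfbi, a secreted matrix protein gene named for its induction by TGF-beta, had 100.8, 114 and 96.7 CPM against 161, 155 and 174 CPM. In both genes every knockout lay above every control. The log2 fold change of Tgfbi was 0.65 (SE 0.15, edgeR adjusted p = 0.261), and DESeq2 called both genes while voom called 0 of the 12. EdgeR called Cdkn1a with no expression filter, with the replicate block and without knockout 3. Id2, which encodes an inhibitor of helix-loop-helix factors, followed at 0.50 (SE 0.17, edgeR adjusted p = 0.935). On the other side Pmepa1, given above, and Skil, both also members of this list, had values below 0, so the genes best known as SMAD feedback targets (Smad7, Skil and Pmepa1) and Tgfbi, Cdkn1a and Id2 had fitted values of opposite sign.

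Microglial genes that are known to fall when TGF-beta signalling is lost in mice had a median log2 fold change of -0.14. Of the 19 tested, 15 were below 0, against 47.5% of all genes tested. In 4 of them (Olfml3, Fcrls, Slc2a5 and Csf1r) all knockouts lay below all controls, and in 0 all knockouts lay above. Over all genes tested these shares were 4.47% and 6.59%. EdgeR, DESeq2 and voom each called 0 of the 19. At an unadjusted p under 0.05, 2 were lower and 0 higher: Tmem119 (-0.30, SE 0.13) and Fcrls (-0.27, SE 0.12), each with an edgeR adjusted p of 0.999, against 1.98% and 2.34% of all genes tested. In the alternative fits with all 6 libraries, the count of lower genes ran from 1 (library totals in place of TMM) to 8 (voom). It was 0 without control 1 or control 2, 1 without knockout 1, 2 without knockout 2 and 3 without knockout 3. It was 7 without control 3 or without both shallow libraries. With both left out the median was -0.13, and 6.99% of all genes tested in that fit had an unadjusted p under 0.05 in either direction. Jun, an AP-1 transcription factor gene, was next in p at -0.57 (SE 0.27, edgeR adjusted p = 0.999). The zinc finger factor gene Sall1 had -0.12 (SE 0.16) and the receptor gene P2ry12 -0.033 (SE 0.10). These were chosen after their values were seen. The 7 microglial markers summed above all stand in this list too, Tmem119 and Fcrls among them, so the marker sums and this list share values. The part of the share of microglia in the values of this list was not tested.

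Genes known to rise in microglia without TGF-beta signalling had a median log2 fold change of 0.76, and 16 of 20 were above 0. The 4 below 0 were Spp1 (-1.02, SE 0.57), Lpl (-0.29, SE 0.49), Ccl2 (-0.074, SE 0.38) and Itgax (-0.029, SE 0.38). Each of these had an edgeR adjusted p of 0.999. EdgeR and voom called 0 of them, and DESeq2 called 4 higher (Cd74, H2-Aa, Ms4a7 and Lyz2), against its 0.526% of all genes. All lists were chosen with earlier results of these data known, so comparing their counts with the shares over all genes is not independent of those results. An unadjusted p under 0.05 was reached in the edgeR fit by 10 higher and 0 lower genes, against 2.34% and 1.98% of all genes tested. This unadjusted count was 3 higher and 2 lower without control 1 (median 0.52), 6 higher without control 3 or knockout 1, and 4 higher without knockout 2 or without both shallow libraries. It was 8 higher without control 2 and 12 higher without knockout 3. In the alternative fits with all 6 libraries it ran from 5 higher (replicate block) to 11 higher (DESeq2 and voom among them), with 0 or 1 lower. EdgeR made calls here with no expression filter (Ms4a7, Cybb and Lyz2), without control 2 (Lyz2) and without knockout 3 (Cd74 and H2-Aa). Cst7, a protease inhibitor gene of activated microglia, had 24.8, 31.8 and 28.3 CPM in the control mice against 51.7, 55.1 and 35.1 CPM in the knockout mice (0.74, SE 0.23, edgeR adjusted p = 0.666). Lyz2, the lysozyme gene, which may share reads with its near-identical copy Lyz1, had 0.95 (SE 0.23, edgeR adjusted p = 0.365). Ms4a7 had 3.10, 7.21 and 9.43 CPM in the control mice against 46.3, 28.6 and 15.0 CPM in the knockout mice (2.33, SE 0.52, edgeR adjusted p = 0.366). Ms4a7 also stands in the list of border-associated macrophage markers, whose sum was 17.5, 41.4 and 91.2 CPM in those control mice against 285, 175 and 69.9 CPM in those knockout mice. All 10 of these macrophage markers had fitted values above 0, the median being 2.39, and 5 were higher at an unadjusted p under 0.05, against 2.34% of all genes tested. Fitted values were also above 0 in 5 of the 6 monocyte markers tested (median 1.16) and 5 of the 5 neutrophil markers tested (median 1.89). Of these, 0 had an unadjusted p under 0.05 in the edgeR fit. The part of other macrophages, monocytes and neutrophils in the values of the raised list was not tested.

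**Figure D4:**
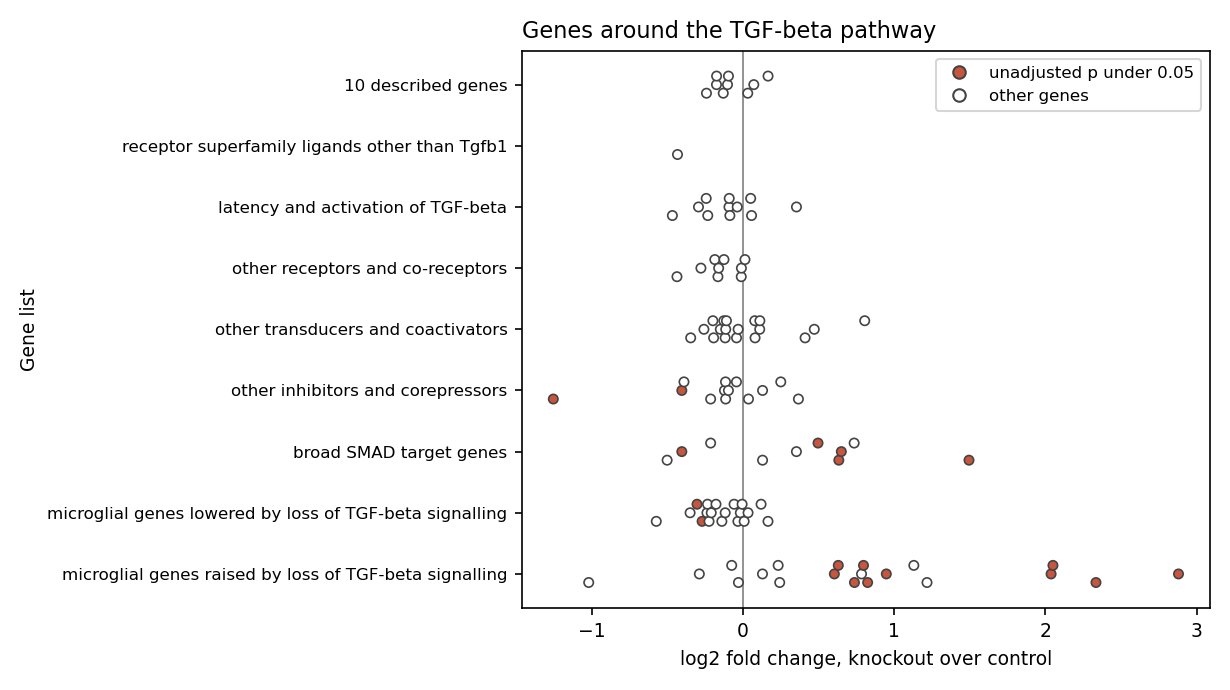
Log2 fold change of knockout over control for each gene with a mean of at least 5 CPM, by list, with the 10 described genes on top; filled points have an unadjusted p under 0.05 (edgeR). The 9 of the 10 described genes above that level lie between -0.24 and 0.17 with no filled point. The list of genes raised by loss of TGF-beta signalling runs from -1.02 (Spp1) to 2.88 (H2-Aa, SE 0.72, edgeR adjusted p = 0.999).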

How the data were processed

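Read counts per gene were analysed for 6 libraries, 3 per group. The authors deposited unnormalized whole-number counts, as the values show. The genome build GRCm39 and the tools STAR, featureCounts, Subread, Salmon and bcl2fastq are named in the submitters' processing notes. The roles and versions of these tools and the strand setting are not given in the sources used here. SMARTer Ultra Low cDNA without molecular identifiers was sequenced, per the labels' protocols, so reads are not independent molecules and counting intervals cover counting error only. Of 55774 rows, 287 repeated an identifier with the same counts and were left out; 0 rows named no gene.

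Genes passing edgeR's default filter (15787) were scaled by TMM and tested with the robust quasi-likelihood F-test (edgeR 4.0.16, R 4.3.3), with group as the only term and Benjamini-Hochberg adjustment over all of them. Calls are adjusted p-values under 0.05. CPM are over reads in tested genes. SEs are the coefficient over the square root of F. A floor of 3 reads is 0.0789 CPM in control 1 and 2.36 CPM in control 3. Exon lengths came from GENCODE M21, an annotation of the preceding assembly that holds 99.5% of the identifiers. Promoters came from RefSeq (GRCm38.p6). The fit was also run on counts simulated from its own estimates, which cannot show that it suits these libraries.

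The 10 genes and all lists were chosen with earlier results of these data known. A listed microglial gene is not reported here and was left out of its lists, which changed no count of calls. Cx3cr1 stands in no list because its locus carries the Cre allele. Named are all 10 genes, any list gene called, and in each list the 3 with the smallest unadjusted p and a mean of at least 5 CPM; others were chosen after their values were seen. Alternatives were DESeq2 1.42.0, limma 3.58.1 (voom), other scaling and filters, no robust option, the replicate block and libraries left out. Libraries of the same group were not alike within counting error (chi-square over its degrees of freedom at least 41.0).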

Additional observations from a re-analysis of the deposited data

How the results depend on the processing

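In each of the 15 alternative fits, 0 of the 10 TGF-beta genes were called and 0 had an unadjusted p under 0.05. Their smallest adjusted p was 0.603 (Smad7, voom). The fitted values are small, and some changed sign. Tgfb1 had 0.058 with voom and 0.12 without both shallow libraries, and -0.24 to 0.0015 with 1 library left out. Smad4 had -0.015 without both shallow libraries, and -0.11 (without control 2) to 0.11 with 1 library left out, with -0.10 without knockout 2. In the same leave-one-out fits Smad3 had -0.087 (without knockout 3) to 0.16, with -0.046 without control 3. Smad7 had -0.43 to 0.012 (without control 2), and Ltbp3 had -0.050 (without knockout 1) to 0.73. In the other 5 genes no sign changed in these fits. Over all genes, 5 higher and 2 lower calls became 60 and 42 with no filter, 49 and 34 with DESeq2, 9 and 6 with voom, 1 and 1 without the robust option, and 9 and 30 without both shallow libraries. Leaving out 1 library gave 1 to 15 higher and 1 to 35 lower; the extremes of 15 and 35 came without control 3. Among the other pathway genes listed, 0 calls became 5 with no filter, 7 with DESeq2, 1 without both shallow libraries, and 0 to 3 with 1 library left out. With the replicate block, 16 genes were higher and 9 lower, and 1 listed pathway gene (Cdkn1a) was called. The labels do not say whether the numbers pair the mice. Deviations of libraries with the same number had correlations of 0.333, -0.296 and -0.131, and control 2 correlated best with knockout 1. These values cannot decide on pairing, because the shallow libraries control 3 and knockout 2 carry different numbers and correlated at 0.380. Control 3 held 6 Ltbp3 reads. The SE of Ltbp3 was 0.65 without both shallow libraries and 0.64 with all 6 libraries, in fits with unlike numbers of mice. The causes of these changes were not tested.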
